A study of Mus musculus with 6 samples.

Results

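The YAP pathway and the CCN family are described here through 10 genes, taken by symbol from a table of 46095 genes measured in mouse 3T3-L1 cells. They are Ctgf, Cyr61, Nov, Wisp1 and Wisp2, whose current symbols are Ccn2, Ccn1, Ccn3, Ccn4 and Ccn5, with Yap1, Wwtr1, Tead1, Lats2 and Amotl2. All 10 rows were found and all 10 had a mean of at least 1 FPKM (a fragment count scaled for gene length and library depth) over the 6 samples. 3T3-L1 is a line of mouse embryo fibroblasts that turn into fat-storing cells under hormonal stimulation. Of the 6 samples, 3 had received 0.125 μg/mL of flavonoids of Smilax glabra, a climbing medicinal plant, and 3 were untreated. All were labelled adipocytes and taken 8 days after differentiation, and no genotype or further agent is named in the labels.

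YAP1 and its paralog TAZ, the product of Wwtr1, are coactivators that bind no DNA themselves and act through the TEAD transcription factors. The Hippo kinases, LATS2 among them, phosphorylate both coactivators and keep them in the cytoplasm, while stretched cells on a stiff matrix let them enter the nucleus. CCN proteins are secreted matricellular proteins that bind integrins and growth factors. Cyr61 and Ctgf are classical YAP and TAZ target genes, and Lats2 and Amotl2 are targets that also feed back on the pathway. In adipogenesis, TAZ is known to hold back the fat cell regulator PPARG.

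The 6 libraries held 21952064 to 26355863 whole fragments, worked back from the steps between FPKM values. Of 10 listed markers of mature adipocytes, 4 reached a mean of 1 FPKM. Adipoq, the adiponectin gene, measured 0.259, 0.734 and 0.197 FPKM in flavonoid-treated cells and 0.294, 0.104 and 0.0321 FPKM in untreated cells, so this marker of the labelled cell type was nearly absent, while Fabp4 and Lpl lay above 100 FPKM in all 6 libraries. Of 10 preadipocyte and fibroblast markers, 9 were tested. Macrophage and endothelial markers were near the floor: their 5 genes each summed to at most 3.50 and 0.345 FPKM, with Ptprc, Cdh5 and Kdr listed at 0 throughout. Nothing in the labels says that the 3 samples of a group were separate cultures, so the p-values speak only for the variation among these libraries, and that may be technical.

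TEAD factors recognise the letters GGAATG, read as CATTCC on the other strand. Promoter sequences (RefSeq, GRCm38.p6, the assembly mm10 denotes, 250 bases before to 50 after a start site) were found for 5 of the 10 genes: Cyr61, Yap1, Wwtr1, Lats2 and Amotl2. Ctgf, Nov, Wisp1, Wisp2 and Tead1 had no entry. GGAATG occurred on either strand in all 5, against 16.6% of the 27025 genes with such sequences. The match lay 103 bases before the start in Cyr61, 141 in Yap1, 136 in Wwtr1 and 65 in Amotl2, and began at base 5 after the start in Lats2 at its upstream start site. The second Lats2 start site had no match, and the second Wwtr1 start site shares the match with its first. The Amotl2 start used, at base 102717804, lies inside the gene span, which begins at 102717091. The 250 bases before it overlap 2 annotated Amotl2 exons, and those before the Yap1 start overlap 1 exon of Gm45494. Those before the second Wwtr1 start overlap 1 exon of Wwtr1. These stretches may therefore be partly transcribed. The Lats2 start with the match, at base 57746123 on the minus strand, also lies inside the gene span, which ends at 57746212. No annotated exon overlaps the 250 bases before it. AP-1 letters, TGANTCA, which can share end letters with a TEAD match, occurred in none of the 5, against 8.97% of genes. A match is a description of letters and not a bound site. The 250 bases before the start of Cyr61, the most strongly expressed gene of the set, and of Wwtr1 are shown 5′ to 3′ on the gene's strand, then short windows of the other 3 genes, with the TEAD letters in capitals.
Cyr61, chr3:145649986-145650235, minus strand: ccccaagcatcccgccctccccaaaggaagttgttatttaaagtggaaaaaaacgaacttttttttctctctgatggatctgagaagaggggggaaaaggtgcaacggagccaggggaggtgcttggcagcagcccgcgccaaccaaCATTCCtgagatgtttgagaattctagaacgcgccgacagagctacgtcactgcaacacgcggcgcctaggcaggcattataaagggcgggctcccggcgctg
Wwtr1, chr3:57575911-57576160, minus strand: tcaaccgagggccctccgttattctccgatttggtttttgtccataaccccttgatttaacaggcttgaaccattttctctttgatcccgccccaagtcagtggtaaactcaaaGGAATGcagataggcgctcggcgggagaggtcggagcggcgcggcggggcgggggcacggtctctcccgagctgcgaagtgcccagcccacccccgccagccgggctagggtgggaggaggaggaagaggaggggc
Yap1, chr9:8004722-8004747, minus strand: ggagtctgcaGGAATGtagcgacgcg
Lats2, chr14:57746104-57746129, minus strand: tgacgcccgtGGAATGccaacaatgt
Amotl2, chr9:102717729-102717754, plus strand: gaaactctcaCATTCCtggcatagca

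With flavonoids, Cyr61, Nov, Wisp2 and Ctgf fell, and none of the 10 genes rose. These 4 are all CCN genes, and the coactivator, TEAD, kinase and angiomotin genes of the set did not pass the test. The 4 of 10 called lower compare with 5.13% of the 11464 tested genes called lower and 4.86% called higher, 9.99% in either direction (limma on log2(FPKM + 1), two-sided, Benjamini-Hochberg adjusted p under 0.05 over all tested genes). The median difference of the 10 genes, flavonoids minus untreated, was -0.44 on the log2(FPKM + 1) scale, against -0.02 for all tested genes. Of the 10 estimates 9 were negative, against 52.6% over all tested genes. The 10 genes were chosen with earlier results of these data known, so these contrasts with all tested genes are descriptions and not tests. In 6 of the 10 every treated value lay below every untreated value, and 17.3% of tested genes were separated in this direction, 34.3% in either. The replicate number used as a block left 2 of the 4 calls, Cyr61 and Nov, and so did median-ratio scaling and testing without a filter on low values. Over all tested genes 237, 539 and 324 were then called lower, in that order, the last among 22235 tested. Without flavonoids replicate 1 only Nov was called, without flavonoids replicate 3 Cyr61 and Nov, and without flavonoids replicate 2 or untreated replicate 2 the count was 0. In these 4 fits 118, 275, 207 and 81 of all tested genes were called lower, in that order. With each library's trend over gene length removed, 5 were called lower, with Wwtr1 added. In that fit 1131 of the 11464 tested genes were called lower and 1379 higher. On the log2(FPKM + 1) scale the change of a gene with few FPKM is understated.

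**Figure D1:**
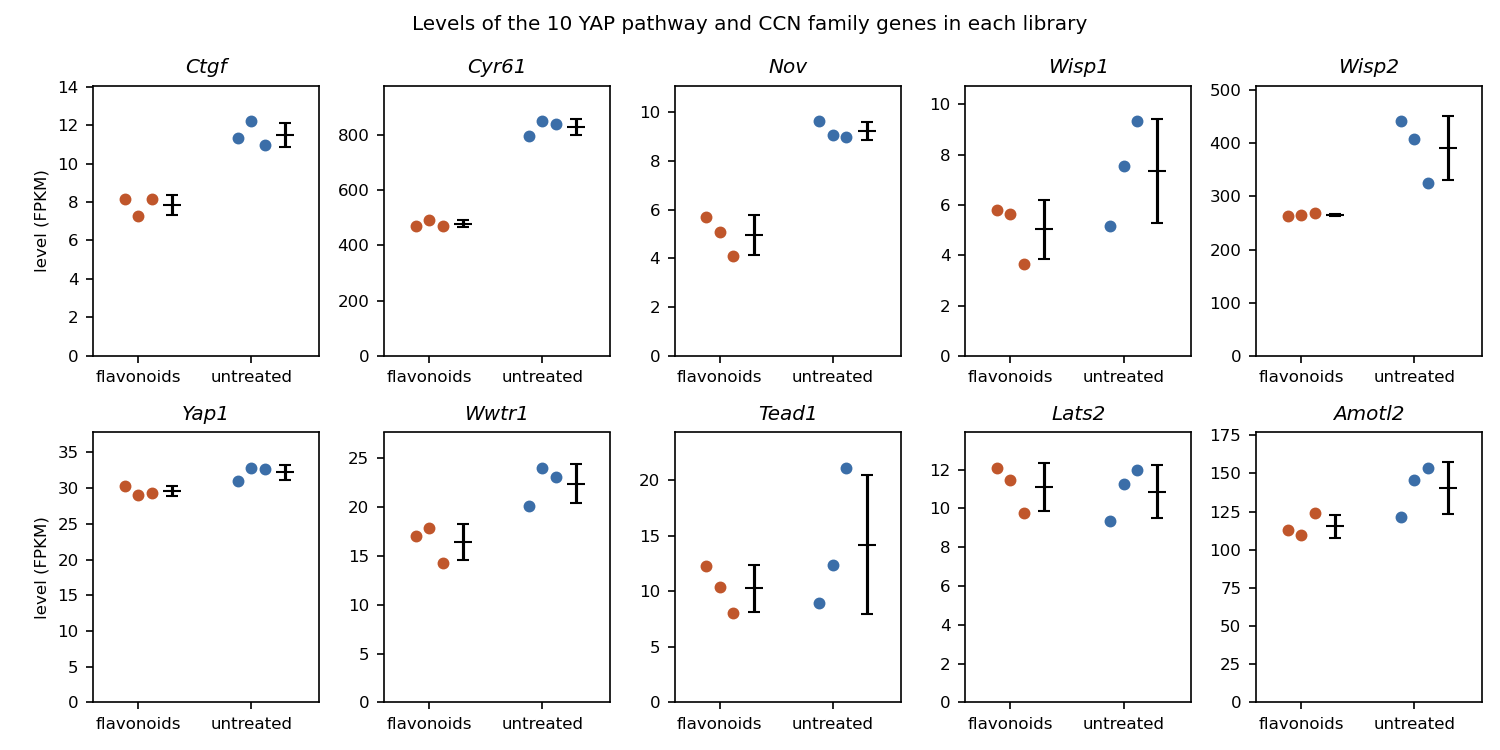
Levels in FPKM of each of the 10 genes (axes from 0), with 1 point per library, flavonoids on the left and untreated on the right, and the mean ± SD of 3 libraries beside the points. Treated points lie below all untreated points for Ctgf, Cyr61, Nov, Wisp2, Yap1 and Wwtr1, while Tead1 in untreated cells spreads from 8.99 to 21.1 FPKM.

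Cyr61 encodes CCN1, a secreted protein that binds integrins and heparan sulphate and is induced by growth factors and stretch. Its gene lies at chr3:145646971-145649985 (GRCm38.p6, as are all gene positions here). Cyr61 measured 472, 494 and 471 FPKM in flavonoid-treated cells and 796, 850 and 839 FPKM in untreated cells. The groups did not overlap, and the gap between them was many times the spread within either. The means were 479 ± 13 and 828 ± 28.1 FPKM (SD, n = 3 each), 1.73-fold lower with flavonoids, and the fitted difference was -0.79 (SE 0.13, 95% CI -1.08 to -0.50, limma adjusted p = 0.00937). Among the tested genes, 99.1% had a lower mean level than Cyr61, so it was one of the abundant transcripts of these cells. The call was lost without flavonoids replicate 1 (adjusted p = 0.0667), flavonoids replicate 2 (0.0555) or untreated replicate 2 (0.0819), while the estimate stayed between -0.82 and -0.77 over the 6 fits without a library. After removal of the length trends it was called in all 6 fits that left out a library, with adjusted p of 0.000364 to 0.00245.

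Ctgf encodes CCN2, connective tissue growth factor, a matrix-inducing protein that is a target of TGF-beta as well as of YAP (chr10:24595442-24598683). Ctgf levels were 8.15, 7.25 and 8.16 FPKM with flavonoids and 11.3, 12.2 and 11.0 FPKM without. Every treated library was below every untreated one, on 462 to 490 and 601 to 686 fragments per library. The means of 7.85 ± 0.523 and 11.5 ± 0.636 FPKM gave a fitted difference of -0.50 (SE 0.12, limma adjusted p = 0.033). Ctgf was thus the weaker of the pair of classical target genes in level, near the middle of all tested genes, with 48.3% of them lower. The call did not hold without flavonoids replicate 1 (adjusted p = 0.114), flavonoids replicate 2 (0.148), flavonoids replicate 3 (0.061) or untreated replicate 2 (0.184), nor with the replicate block (0.0901). An opposite-strand transcript, Gm15270, overlaps its exons, and the use of strand in counting is not given in the sources used here.

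Nov encodes CCN3, a CCN protein known to act against CCN2 in kidney and connective tissue cells (chr15:54745910-54753762). Nov measured 5.69, 5.10 and 4.08 FPKM in treated cells and 9.62, 9.05 and 8.97 FPKM in untreated cells. The untreated libraries were close together and all above the treated ones, on 239 to 337 fragments with flavonoids and 501 to 536 without. Its mean fell to 4.96 ± 0.817 FPKM with flavonoids, against 9.21 ± 0.357 FPKM without, 1.86-fold lower and the largest ratio of means among the 10 genes (difference -0.79, SE 0.14, limma adjusted p = 0.0122). Without flavonoids replicate 2 or untreated replicate 2 the adjusted p was 0.0516 and 0.0792.

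Wisp2 encodes CCN5, a CCN protein without the C-terminal cysteine knot of its relatives, known as a WNT-induced protein of adipose precursor cells (chr2:163820752-163833146). Wisp2 levels were 263, 265 and 268 FPKM with flavonoids and 441, 408 and 325 FPKM in untreated cells. The treated libraries were nearly identical, and untreated replicate 3 was the lowest of its group without reaching them. The means were 265 ± 2.59 and 391 ± 59.9 FPKM, and the fitted difference was -0.55 (SE 0.14, limma adjusted p = 0.0474), just under the threshold. Leaving out untreated replicate 3 moved the difference to -0.68 (adjusted p = 0.00499). Leaving out any other library ended the call, with adjusted p of 0.0583 without untreated replicate 1, 0.213 without untreated replicate 2, and 0.169, 0.157 and 0.12 without flavonoids replicates 1, 2 and 3, and so did the replicate block (0.0929). With length trends removed, the adjusted p was 0.00135 and stayed between 0.00112 and 0.0123 over the 6 fits without a library.

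Wisp1 encodes CCN4, a WNT-induced CCN protein (chr15:66891369-66923201). It measured 5.80, 5.62 and 3.66 FPKM with flavonoids and 5.17, 7.52 and 9.32 FPKM without. The groups overlapped, since untreated replicate 1 lay below 2 treated libraries, and the difference of -0.46 did not pass the test (95% CI -0.96 to 0.04, limma adjusted p = 0.224). Wisp3, the remaining CCN gene, was listed at 0 in 5 libraries and at 0.114 FPKM in flavonoids replicate 3.

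Summed over the 6 CCN genes, the level was 754, 777 and 755 FPKM in treated libraries and 1264, 1286 and 1193 FPKM in untreated libraries. The treated sums stood well below the untreated ones and varied little among themselves. Cyr61 made up 62.4% to 63.6% of the sum with flavonoids and 63% to 70.3% without, and Wisp2 made up 34.1% to 35.5% and 27.3% to 34.9%. Ctgf contributed about 1% in each group (1.03 ± 0.085% with flavonoids, 0.922 ± 0.027% without). CCN transcripts in these cells were therefore almost entirely Cyr61 and Wisp2. In bulk RNA, fewer cells expressing a gene and less RNA per cell cannot be told apart.

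**Figure D2:**
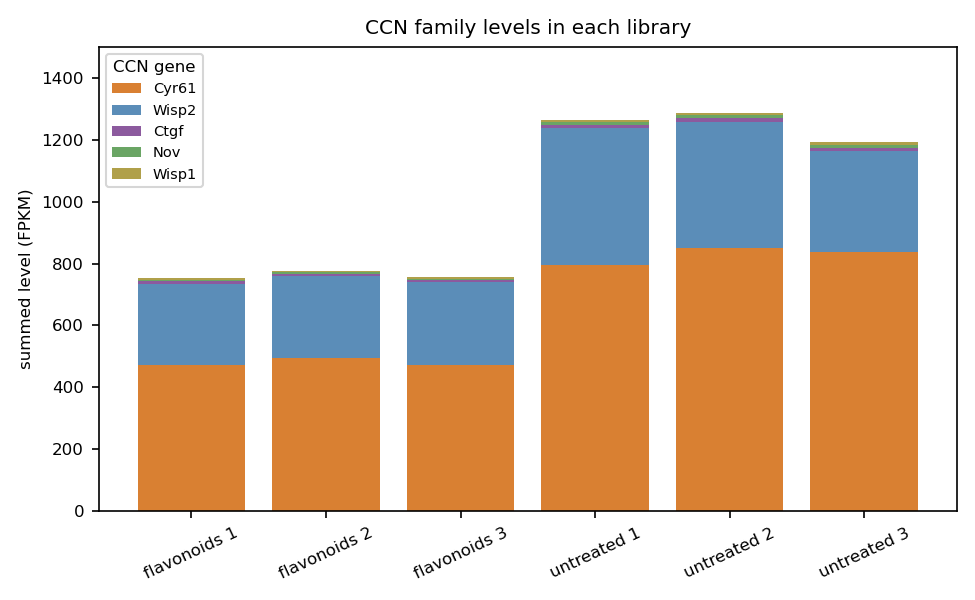
Stacked levels (FPKM, axis from 0) of 5 CCN genes in each library, flavonoids left of untreated. The treated bars reach 754 to 777 FPKM and the untreated bars 1193 to 1286 FPKM, and Cyr61 and Wisp2 fill nearly all of each.

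Neither coactivator gene passed the test. Yap1 (chr9:7931999-8004638) measured 30.4, 29.1 and 29.2 FPKM in treated cells and 31.0, 32.9 and 32.7 FPKM in untreated cells. The groups did not overlap, but the gap was small, and the difference of -0.12 did not pass the test (SE 0.10, 95% CI -0.35 to 0.11, limma adjusted p = 0.491). Its exons overlap those of an opposite-strand transcript, Gm20416. Wwtr1, the TAZ gene (chr3:57455644-57575910), measured 17.0, 17.9 and 14.3 FPKM with flavonoids and 20.1, 24.0 and 23.0 FPKM without. All 3 treated libraries lay below the untreated ones, with means of 16.4 ± 1.86 and 22.4 ± 2.01 FPKM and a difference of -0.43 (SE 0.13, 95% CI -0.72 to -0.14, limma adjusted p = 0.0706). It passed the threshold after removal of the length trends (-0.35, adjusted p = 0.0356) and without untreated replicate 1 (-0.50, adjusted p = 0.0386). With both a library left out and length trends removed, it was called in 1 of 6 fits. Wwtr1 supplied 35.6 ± 2.7% of the summed Yap1 and Wwtr1 level in treated cells and 41 ± 1.4% in untreated cells, so Yap1 was the more abundant coactivator transcript per length in both groups.

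Tead1 (chr7:112679356-112906784) encodes one of 4 TEAD factors, the partners that carry YAP and TAZ to DNA. It measured 12.3, 10.4 and 8.09 FPKM with flavonoids and 8.99, 12.4 and 21.1 FPKM without. The groups overlapped, and untreated replicate 3 stood far above all others. The difference was -0.37 (95% CI -0.99 to 0.25, limma adjusted p = 0.43), and it was -0.06 without untreated replicate 3 and -0.63 without untreated replicate 1. The relatives of Tead1, named here whatever their values, had other levels. Tead2 was by far the most abundant, at 65.8, 68.7 and 76.4 FPKM in treated cells and 66.3, 62.1 and 50.2 FPKM in untreated cells (difference 0.24, adjusted p = 0.292). It made up 82.9 ± 2.6% of the summed TEAD level with flavonoids and 77.5 ± 9.6% without, while Tead1 made up 12.2 ± 3% and 18.6 ± 8.5%. Tead4 measured 3.01, 3.71 and 3.97 FPKM with flavonoids and 1.84, 2.18 and 2.71 FPKM without, groups that did not overlap (difference 0.50, adjusted p = 0.0854; with length trends removed 0.53, adjusted p = 0.0276). Tead3 was at or below 1.08 FPKM in every library.

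Lats2 (chr14:57689662-57746212) encodes a kinase that phosphorylates YAP and TAZ and is itself one of their targets. It measured 12.1, 11.5 and 9.75 FPKM in treated cells and 9.36, 11.2 and 11.98 FPKM in untreated cells. The 2 groups covered nearly the same range, and the difference was 0.03 (95% CI -0.28 to 0.35, limma adjusted p = 0.915), with a sign that turned on the TPM scale (-0.02). A same-strand gene model, Gm49361, overlaps its exons, so its reads may not all be its own. Amotl2 (chr9:102717091-102733418) encodes an angiomotin-like junction protein that binds YAP and retains it. It measured 113, 110 and 124 FPKM with flavonoids and 121, 146 and 154 FPKM without. Flavonoids replicate 3 lay above untreated replicate 1, and the difference of -0.27 did not pass the test (95% CI -0.57 to 0.02, limma adjusted p = 0.215). In order of mean level per length, Cyr61 was followed by Wisp2, Amotl2, Yap1 and Wwtr1. Tead1, Lats2 and Ctgf followed with values that overlapped one another, as did those of Nov and Wisp1, the lowest.

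**Figure D3:**
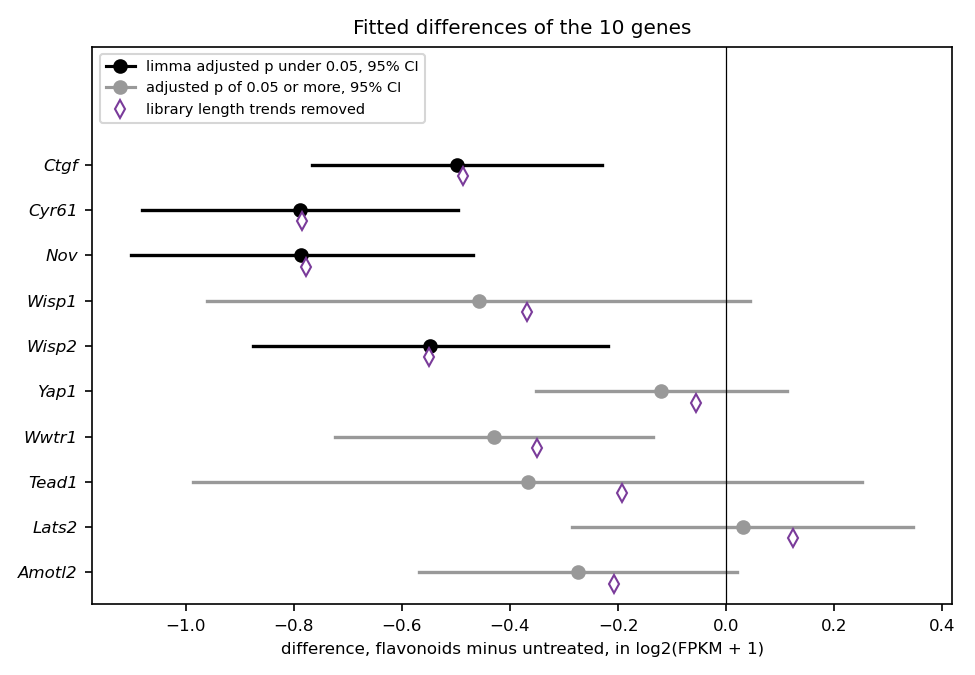
Fitted differences, flavonoids minus untreated, on the log2(FPKM + 1) scale, with lines for 95% confidence intervals (n = 3 libraries per group) and open diamonds for the estimate after each library's length trend was removed. The 4 black points, all CCN genes, lie at -0.79 to -0.50, and the largest shift between point and diamond is that of Tead1, at -0.37 and -0.19.

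The upstream part of the pathway was covered by 23 further genes, of which 21 were tested. Of these, 2 fell, 0 rose and 19 did not pass, with a median difference of -0.05. Over all tested genes 5.13% were called lower and 4.86% higher, so 2 of 21 is near that background. Frmd6, a scaffold gene whose product Willin promotes Hippo signalling, measured 13.3, 13.9 and 13.5 FPKM in treated cells and 19.2, 25.04 and 26.4 FPKM in untreated cells, 1.74-fold lower in mean (difference -0.74, SE 0.14, limma adjusted p = 0.0146). Amot, the founding angiomotin gene and a relative of Amotl2, measured 4.61, 4.75 and 4.51 FPKM with flavonoids and 6.40, 8.32 and 10.4 FPKM without (difference -0.72, SE 0.17, limma adjusted p = 0.0318). Neither gene had overlapping groups. Both calls were lost without flavonoids replicate 1, 2 or 3 or untreated replicate 2, where the adjusted p was 0.0765, 0.056, 0.0532 and 0.097 for Frmd6 and 0.115, 0.0928, 0.0958 and 0.139 for Amot. The Amot call was also lost with the replicate block (0.0717), on the TPM scale (0.0655) and without a filter (0.0953). The abundant kinase gene Map4k4 averaged 66.5 ± 3.49 and 67.6 ± 13.1 FPKM and the LATS cofactor gene Mob1a 35.4 ± 5.07 and 36.9 ± 5.54 FPKM in treated and untreated cells (adjusted p = 0.986 and 0.853). Nf2, which encodes the upstream activator Merlin and was chosen here after its values were seen, measured 36.8, 34.6 and 42.4 FPKM with flavonoids and 20.5, 26.7 and 30.7 FPKM without. All treated values were above all untreated ones, with a difference of 0.54 (adjusted p = 0.0665, and 0.00571 with length trends removed). Amotl1, another angiomotin gene, also chosen after its values were seen, averaged 21.2 ± 1.72 and 17.8 ± 7.49 FPKM (adjusted p = 0.461).

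Of 8 listed TEAD factors and cofactors, 6 were tested and none passed (limma), with Vgll2 listed at 0 throughout and Tead3 below the filter. The list holds the kinase gene Nuak2, which is neither and is also counted among the targets. Vgll4, a cofactor that competes with YAP for TEAD, averaged 31.3 ± 2.49 FPKM with flavonoids and 31.6 ± 4.69 FPKM without (adjusted p = 0.984). Of 22 listed YAP and TAZ targets outside the 10 genes, 18 were tested, 1 rose and 1 fell, with 10 negative and 8 positive estimates and a median of -0.15. These counts are at the background of 4.86% called higher and 5.13% called lower. Gadd45a, a growth arrest gene that stress also induces, measured 141, 129 and 112 FPKM in treated cells and 58.6, 49.2 and 43.6 FPKM in untreated cells, 2.53-fold higher with flavonoids (difference 1.32, SE 0.14, limma adjusted p = 0.0029). Birc5, which encodes the mitotic and survival protein survivin, measured 8.73, 8.74 and 8.69 FPKM in treated cells and 16.9, 14.3 and 10.8 FPKM in untreated cells (difference -0.60, SE 0.16, limma adjusted p = 0.0486). The Birc5 call held in 6 of 19 other settings, and its adjusted p ran from 0.00407 to 0.192 over all settings tried. It was lost with the replicate block (0.0861) and without untreated replicate 1 (0.0647), untreated replicate 2 (0.192) or flavonoids replicates 1, 2 or 3 (0.153, 0.135 and 0.122), while the Gadd45a call held in all 19. Thbs1, the thrombospondin 1 gene, averaged 248 ± 21.5 and 439 ± 152 FPKM in treated and untreated cells, without overlap (limma adjusted p = 0.0712). With length trends removed its difference was -0.66 (limma adjusted p = 0.00531). Axl, a receptor tyrosine kinase gene, averaged 145 ± 7.83 and 119 ± 17.9 FPKM (limma adjusted p = 0.212, and 0.0182 with length trends removed). Ankrd1, a classical target often read beside Cyr61 and Ctgf and chosen here after its values were seen, measured 57.0, 52.7 and 37.2 FPKM with flavonoids and 35.1, 30.8 and 28.5 FPKM without. Its treated libraries were all above the untreated ones, the opposite order to Cyr61 and Ctgf, at a difference of 0.60 (adjusted p = 0.0582, and 0.0102 with length trends removed).

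**Figure D4:**
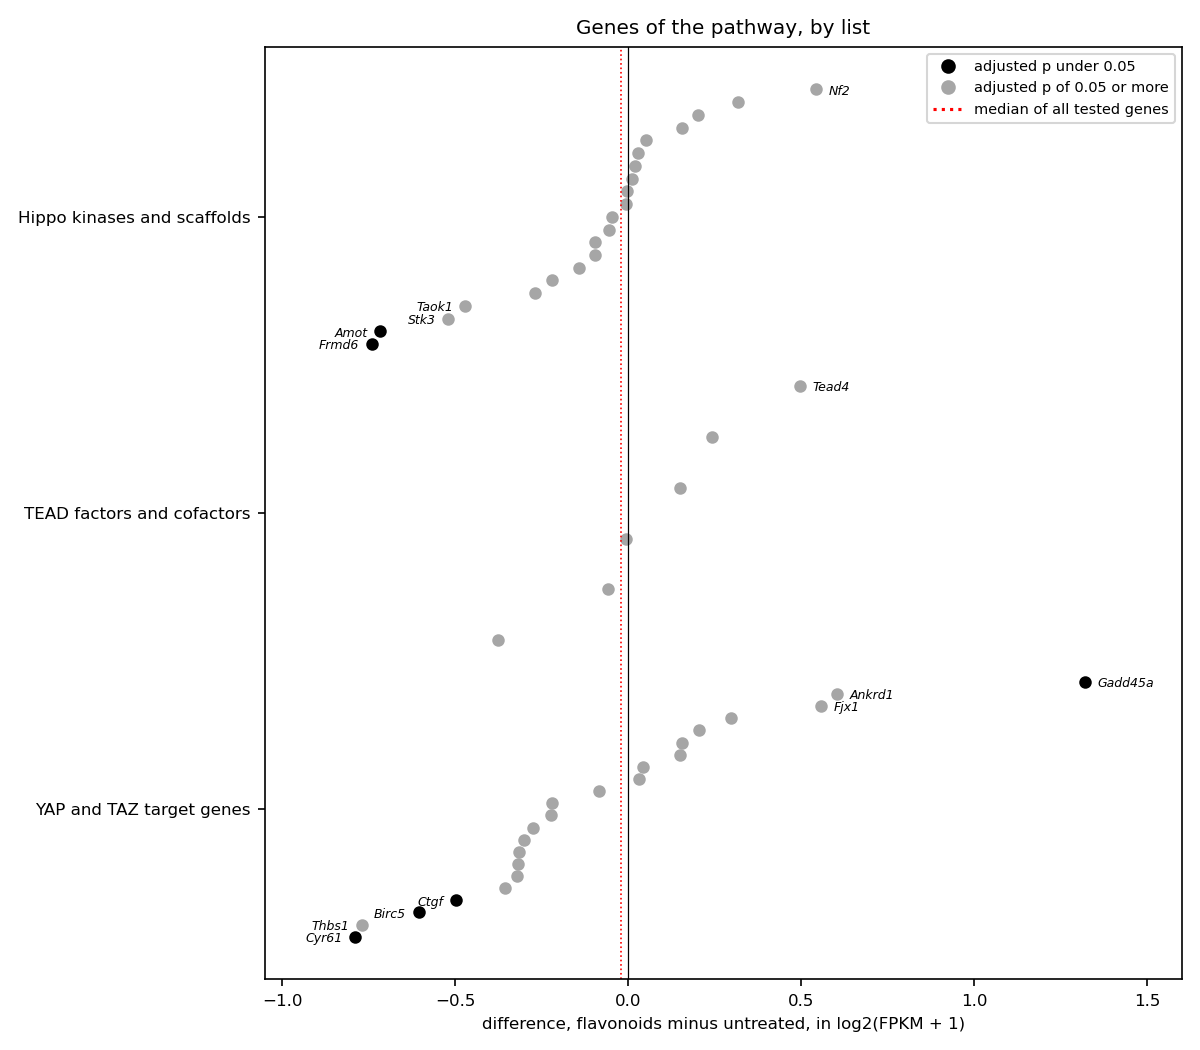
Differences, flavonoids minus untreated, on the log2(FPKM + 1) scale for the tested genes of 3 lists, with 1 point per gene, black for an adjusted p under 0.05, and a dotted line at the median of all tested genes (-0.02). The YAP and TAZ targets, 4 of the 10 genes included, run from Cyr61 at -0.79 to Gadd45a at 1.32.

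Genes of nearest pattern were taken as those with the smallest root mean square difference to the gene over the 6 libraries, after centring log2(FPKM + 1) on each gene's mean, among 7273 other named genes averaging 5 FPKM or more, with unnamed gene models left out. For Cyr61 they were the condensin gene Ncaph (0.03), the matrix protein gene Islr (0.04) and Smad6 (0.05), an inhibitor of BMP signalling. Ncaph measured 16.01, 17.4 and 17.0 FPKM with flavonoids and 28.4, 29.6 and 28.8 FPKM without. Those nearest to Ctgf were Tpi-rs11 (0.03), Grk5 (0.06) and the glycolytic gene Pgam1 (0.07). Tpi-rs11 is a gene model named like triosephosphate isomerase that may share its reads. Grk5 encodes a kinase that acts on G protein-coupled receptors.

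Library and cell markers moved with some of these results. In untreated replicate 3 long genes were high and short genes low: its median deviation from the mean of the 6 libraries ran from -0.32 in group 1 to 0.33 in group 5, when tested genes were split by length into 5 equal groups from the shortest to the longest. Untreated replicate 1 ran the other way, with 0.24 and -0.20. Tead1 and Wisp1 lie in group 5, and in untreated replicate 3 they deviated by 0.81 and 0.57 on the log2 scale. Lats2 lies there too and deviated there by 0.12. The 4 called CCN genes have implied lengths of 1785 to 2418 bases, in groups 2 and 3, where the median difference of all genes was 0.02 and -0.01. With length trends removed their estimates were -0.78 for Cyr61, -0.78 for Nov, -0.55 for Wisp2 and -0.49 for Ctgf, close to those above. Of 9 tested preadipocyte and fibroblast markers, 3 fell (Lum, Dcn and Thy1), 0 rose and 6 did not pass, against 5.13% of all tested genes called lower. Summed over the 10 listed genes, most of it from Col1a1 and Col1a2, which were not called (adjusted p = 0.166 and 0.339), their level was 2550 to 2690 FPKM in treated and 3320 to 4060 FPKM in untreated libraries. Of 4 tested smooth muscle markers none passed. The sums over the listed genes, 347 to 407 and 303 to 422 FPKM, overlapped and came mostly from Acta2 (difference 0.06, limma adjusted p = 0.845). Differences of the other tested markers were -0.74 for Tagln, -0.33 for Des and -0.295 for Smtn. The groups of Tagln and Des did not overlap (limma adjusted p = 0.0815 and 0.173). None of the 4 tested mature adipocyte markers passed either, with differences of 0.65 for Lpl, 0.10 for Pparg, -0.26 for Cebpa and -0.36 for Fabp4. The part of cell makeup in the CCN results was not tested.

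**Figure D5:**
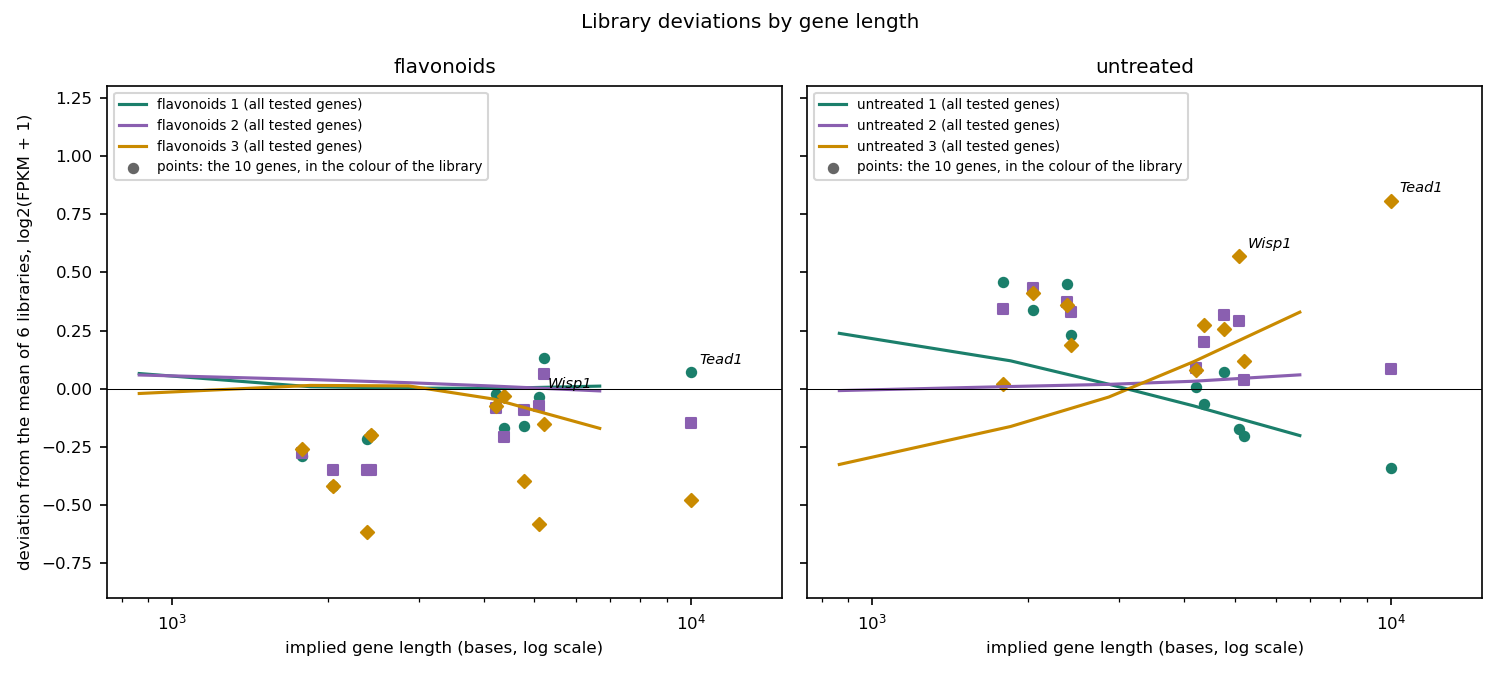
Deviation of each library from the mean of the 6 libraries in log2(FPKM + 1) against implied gene length in bases (log scale), with flavonoids on the left and untreated on the right. Lines join medians over 5 length groups of all tested genes and points are the 10 genes; the line of untreated replicate 3 climbs from -0.32 to 0.33 and its Tead1 point lies at 0.81.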

How the data were processed

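RNA of 6 samples was profiled. Per the labels' protocols, TRIzol was used for RNA and a TruSeq kit for the libraries. The authors deposited 1 table of FPKM values. FastQC, HISAT2 and the build mm10 are named, per the submitters' processing notes. Counting tool, annotation, strand setting and versions: not given in the sources used here.

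Whole fragments were recovered from the steps between FPKM values, and the values of all 22235 genes above 0 came out whole within 0.005 fragments. A gene above 0 in only 1 library comes out as 1 fragment by construction. Where all of a gene's numbers share a divisor they are too small by it, and they cover counting error only. The length implied by a gene's step is called its implied length.

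limma 3.58.1 in R 4.3.3 was run on log2(FPKM + 1) with an intensity trend and no covariate, for the 11464 genes whose mean reached 1 FPKM, with adjustment over all of them. Exact permutation of 3 samples against 3 cannot go below p = 0.1 and was not used. The genes and lists were chosen with earlier results of these data known. Named from the lists were the called genes, at most 5 per direction, and the 2 most abundant others. Between libraries of a group, correlations of log2 values were 0.967 to 0.995 and no pair agreed within sampling noise (chi-square per degree of freedom at least 6.76). Across the groups the correlations were 0.955 to 0.981, so the ranges overlapped. Untreated replicate 1 correlated at 0.967 with untreated replicate 3 and at 0.977, 0.981 and 0.971 with flavonoids replicates 1, 2 and 3. The recovery of whole fragments was tested on simulated fragments. Python 3.11.15 was used for the recovery, sequences and figures. The other settings tried were a replicate block, pseudocounts of 0.1 and 5, other filters, TPM, median-ratio and quantile scaling, no trend, a robust fit, removal of length trends (loess, span 0.5), voom on fragments and leaving out each library. Removal of length trends with a library left out was added after seeing the data.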

Additional observations from a re-analysis of the deposited data

How the results depend on the processing

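Samples with the same replicate number did not deviate together (correlations of deviations from the group means of -0.143, -0.117 and -0.203), so no sign of pairing by number was seen. With 3 libraries per group these values cannot settle whether samples were handled in pairs. With the replicate block 220 genes were higher and 237 lower, against 557 and 588, and 2 of the 10 genes were called. The block gave an adjusted p of 0.0901 for Ctgf (-0.50) and 0.0929 for Wisp2 (-0.55), 1 upstream gene lower and 1 target lower. Target counts in this section are over all 26 listed targets, Ctgf, Cyr61, Amotl2 and Lats2 included, of which 22 were tested. In the fit described above, 1 of these was higher and 3 were lower. With the block, without a filter and with median-ratio scaling, the 1 target lower was Cyr61, and Birc5 was not called. Without a filter 317 and 324 genes were called, 2 of the 10 genes (Ctgf -0.50, Wisp2 -0.55 not called), 1 upstream gene and 1 target lower. Median-ratio scaling left 2 of the 10 genes (Ctgf -0.46, Wisp2 -0.50 not called), 3 targets higher and 1 lower, and the robust fit lost Wisp2 (-0.55). TPM left 1 upstream gene lower and turned Lats2 (-0.024). Quantile normalization called 1 TEAD list gene and 2 targets higher, and no trend and voom 2 targets higher each. With length trends removed 1379 genes were higher and 1131 lower, and with the block as well 1106 and 911. Both of these called 1 upstream gene, 1 TEAD list gene and 5 targets higher and also Wwtr1 (-0.35), and the first called 5 targets lower.

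With 1 library left out, 65 to 876 genes were higher and 81 to 833 lower, and 0 to 4 of the 10 genes were lower. Without flavonoids replicate 2 or untreated replicate 2, 0 of the 10 were called, in fits that called 153 and 65 genes higher and 207 and 81 lower over the whole table. With length trends removed as well, leaving out flavonoids replicates 1, 2 and 3 gave 976, 990 and 1266 genes higher, and leaving out untreated replicates 1, 2 and 3 gave 1238, 709 and 1061. Genes lower then numbered 806, 907 and 1248, and 1001, 616 and 902, with 3 to 5 of the 10 genes among them. Over both kinds of fit the upstream list had 0 to 2 higher and 0 to 3 lower, and the TEAD list 0 to 1 higher. The 26 listed targets had 1 to 4 higher and 0 to 7 lower. Estimates with 1 library left out ran from -0.528 to -0.448 for Ctgf, -0.817 to -0.770 for Cyr61, -0.876 to -0.676 for Nov, -0.675 to -0.455 for Wisp2, -0.501 to -0.340 for Wwtr1 and -0.0636 to 0.114 for Lats2, which was also negative without flavonoids replicate 1 (-0.0288). With length trends removed as well, Ctgf was not called without flavonoids replicate 2 (-0.424) or untreated replicate 2 (-0.454), Wwtr1 was called without untreated replicate 3 (-0.402), and Amotl2 without flavonoids replicate 3 (-0.295). Among comparisons with the reported counts and the estimates of the 10 genes, 388 kept direction and side of the threshold or stayed within the set margin. Of the others, 57 counts moved, and 32 comparisons lost a gene's call or had a count fall to 0. In 20 a gene's call was gained or a count rose from 0, and 3 estimates changed sign. Near-zero estimates of genes named from the lists also changed sign. Map4k4 and Vgll4 were positive with median-ratio scaling (0.040 and 0.039) and with length trends removed, also with the block (0.109 and 0.0144). With 1 library left out the estimates ran from -0.154 to 0.127 for Map4k4, -0.183 to 0.0656 for Mob1a and -0.111 to 0.0976 for Vgll4. With length trends removed as well, Map4k4 was positive without flavonoids replicates 1, 2 and 3 (0.1002, 0.167 and 0.0590) and untreated replicates 1, 2 and 3 (0.0730, 0.126 and 0.127). Mob1a was then positive without flavonoids replicate 3 (0.0819), untreated replicate 2 (0.0424) and untreated replicate 3 (0.0338), and Vgll4 without flavonoids replicates 1 and 2 (0.0763 and 0.0222) and untreated replicates 2 and 3 (0.0104 and 0.133). The cause of the changes was not tested. Nov, at 239 to 536 fragments per library, had the lowest depth of the 10 genes.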

Other observations

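The TEAD letters GGAATG were also looked for in the promoter sequences of the other pathway genes. They occurred in 7 of 19 upstream genes with an entry, 3 of 5 TEAD factors and cofactors and 5 of 14 targets outside the 10 genes, against 16.6% of all genes. The 5 targets were Ajuba, Ankrd1, Axl, Crim1 and Ptpn14, with differences of 0.16, 0.60, 0.30, -0.30 and -0.22, none of which passed the test. Ajuba and Ptpn14 are counted among the upstream genes as well. No test was made of these shares.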
